A study of Mus musculus with 4 samples.

Results

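The genes described here are 10 genes of the endoplasmic reticulum stress response and of the Atf4 program, measured by RNA sequencing (RNA-seq) in 4 mouse mammary tumor cell lines. They were taken as a named list: Atf4, Ddit3, Trib3, Asns, Chac1, Hspa5, Hsp90b1, Xbp1, Herpud1 and Atf6. All 10 were found among the 21090 genes of the deposited table, and all 10 were among the 10871 genes with a mean value of at least 1 RPKM that were tested. RPKM is the number of reads per kilobase of gene length and scaled to the reads of the library, which lets levels of different genes be set side by side. The study knocked out S100a4, which encodes a small protein that binds calcium, in a line grown from a mammary tumor that had spread to the lung. The tumor arose in a C57BL/6 mouse with an activating Pik3ca allele and a mutant Trp53 allele, both switched on by Cre recombinase under the MMTV promoter. By the study's account of a single starting line, all 4 lines share these alleles. The controls (n = 2) were the parental line and a vector control line. The knockouts (n = 2) were a line made with a guide RNA to exon 3 of S100a4 and a line made with a guide RNA to exon 2, each with a lentivirus carrying Cas9 and the guide. Each line is represented by 1 library, the labels give no batch, and the library of the exon 2 knockout carries another cell number in its label than the other 3 libraries, although the study describes a single starting line.

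Secretory and membrane proteins fold in the endoplasmic reticulum, and when unfolded proteins build up there, the membrane sensors Ire1, Perk and Atf6 start the unfolded protein response. Perk phosphorylates the translation initiation factor eIF2 alpha, which slows protein synthesis in general but favours translation of Atf4, and other kinases reach the same step when amino acids or heme are short or viral RNA is present. Atf4 then switches on genes of amino acid supply and, with prolonged stress, Ddit3, while Atf6 and spliced Xbp1 switch on chaperones and the machinery that removes misfolded proteins. Much of this control acts on translation, splicing or cleavage, which a table of gene levels does not show.

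The members were read as 2 branches. Of the 5 members of the Atf4 branch (Atf4, Ddit3, Trib3, Asns and Chac1), 4 were higher in both knockouts than in both controls, with ratios of group means from 1.25 for Atf4 to 1.76 for Trib3. Of the 5 members of the endoplasmic reticulum branch (Hspa5, Hsp90b1, Xbp1, Herpud1 and Atf6), 0 were higher in both knockouts and 2 were lower in both, Hsp90b1 at 0.59 and Atf6 at 0.567 of the control mean. Xbp1 and Herpud1 were above both controls in the exon 3 knockout and below both in the exon 2 knockout. None of these differences passed the test. limma on log2(RPKM + 1), which compared 2 knockouts with 2 controls and adjusted p-values over all 10871 tested genes by the Benjamini-Hochberg method, called 0 of the 10 members at an adjusted p under 0.05, against 0.0184% of all tested genes (2 genes). At an unadjusted p under 0.05 there were 3 members, Trib3 higher and Hsp90b1 and Atf6 lower, and 19.1% of all tested genes. limma-voom on the recovered reads also called 0 members and 0 genes, and limma with a robust prior called 0 members and 285 genes (2.62%). Among all tested genes, 21.9% were higher in both knockouts than in both controls and 31.2% were lower in both, which is the background for the 4 higher and 2 lower members.

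The libraries rest on 14615982 to 20391393 reads in genes, recovered as whole reads from the RPKM values, and the members rest on 926 reads (Atf6, exon 2 knockout) to 32420 reads (Hspa5, parental line). The edited gene S100a4 measured 3576 (parental), 4741 (vector control), 1136 (exon 3 knockout) and 1105 RPKM (exon 2 knockout), and its log2 change was -1.88 with an SE of 0.31 and an adjusted p of 0.0731 in limma. The labelled cell type was checked against markers. Of 7 epithelial markers only Krt8 and Krt18 had a mean of at least 1 RPKM, with Epcam at 0.304 to 0.657 and Cdh1 at 0.117 to 0.252, whereas all 6 mesenchymal markers did, so Epcam and Cdh1, which define epithelium, were near absent from these lines. Summed epithelial RPKM was 34.4 to 130 in the controls and 74.9 to 107 in the knockouts. Of 5 leukocyte markers 1, Cd68, had a mean of at least 1 RPKM, and the list summed to 3.54 to 4.93 in the controls and 11.6 to 13.2 in the knockouts, with the defining markers Ptprc, Emr1 and Cd3e at or near 0. None of the 4 endothelial markers reached a mean of 1 RPKM (summed 0.186 to 0.443). The parental line stood apart in summed mesenchymal RPKM, at 4596 against 2200 to 2456 in the other 3 libraries. The gap was wide in Col1a1 (670 against 6.93 to 54.3), Col1a2 (808 against 149 to 297) and Fn1 (606 against 164 to 414). Vim (2418 against 1362 to 2060) and Pdgfrb (76.1 against 56.8 to 64.0) lay closer. Zeb1 was lower in the parental line (17.2) than in the vector control (19.5). The parental line also stood apart in Ddit3, as described with that gene, and the part of these markers in the results was not tested.

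Short elements near the transcription start are known for both branches, and the sequences below show which members carry them. The search covered RefSeq windows (GRCm38.p6) from 250 bases before to 50 bases after each gene's start, on both strands, and 9 of the 10 members had a window. The first element, ERSE, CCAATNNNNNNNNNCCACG, is bound by Atf6 together with the CCAAT-binding factor NF-Y, and it matched in 2 of the 9 members and in 0.137% of the 27025 genes with a window. The second, the C/EBP-ATF response element or CARE, TGATGNAA, is bound by Atf4 with a C/EBP partner, and it matched in 4 of the 9 members and in 4.51% of all genes. The third, UPRE, TGACGTGG, is bound by spliced Xbp1, and it matched in 0 of the 9 members and in 0.714% of all genes. Positions are counted from the RefSeq start of the window, which can differ from the start in the GENCODE annotation used for the loci below (in Trib3, Asns and Hspa5 the elements lie on the other side of that start). Capitals mark the matched element, each sequence reads 5′ to 3′ on the strand given, and no match of one element overlapped another.
Hspa5, ERSE, chr2:34772020-34772048, plus strand, 65 to 47 bases before the start: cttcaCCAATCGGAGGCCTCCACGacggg
Hsp90b1, ERSE, chr10:86705633-86705661, minus strand, 212 to 194 bases before the start: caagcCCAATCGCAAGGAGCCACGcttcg
Hsp90b1, ERSE, chr10:86705528-86705556, plus strand, 107 to 89 bases before the start: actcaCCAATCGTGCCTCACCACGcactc
Asns, CARE, chr6:7693220-7693237, minus strand, 23 to 16 bases before the start: ccacaTGATGAAActtcc
Chac1, CARE, chr2:119351044-119351061, minus strand, 193 to 186 bases before the start: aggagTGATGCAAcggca
Herpud1, CARE, chr8:94386312-94386329, minus strand, 112 to 105 bases before the start: cgggcTGATGCAAcccgc
Trib3, CARE, chr2:152344034-152344051, plus strand, 15 to 22 bases after the start: ccggcTGATGTAAacctg
The elements lie on the gene's own strand in Asns, Hspa5 and the first of the Hsp90b1 matches, and on the opposite strand in the others. A match is a description of the letters and does not show that a factor binds there.

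**Figure D1:**
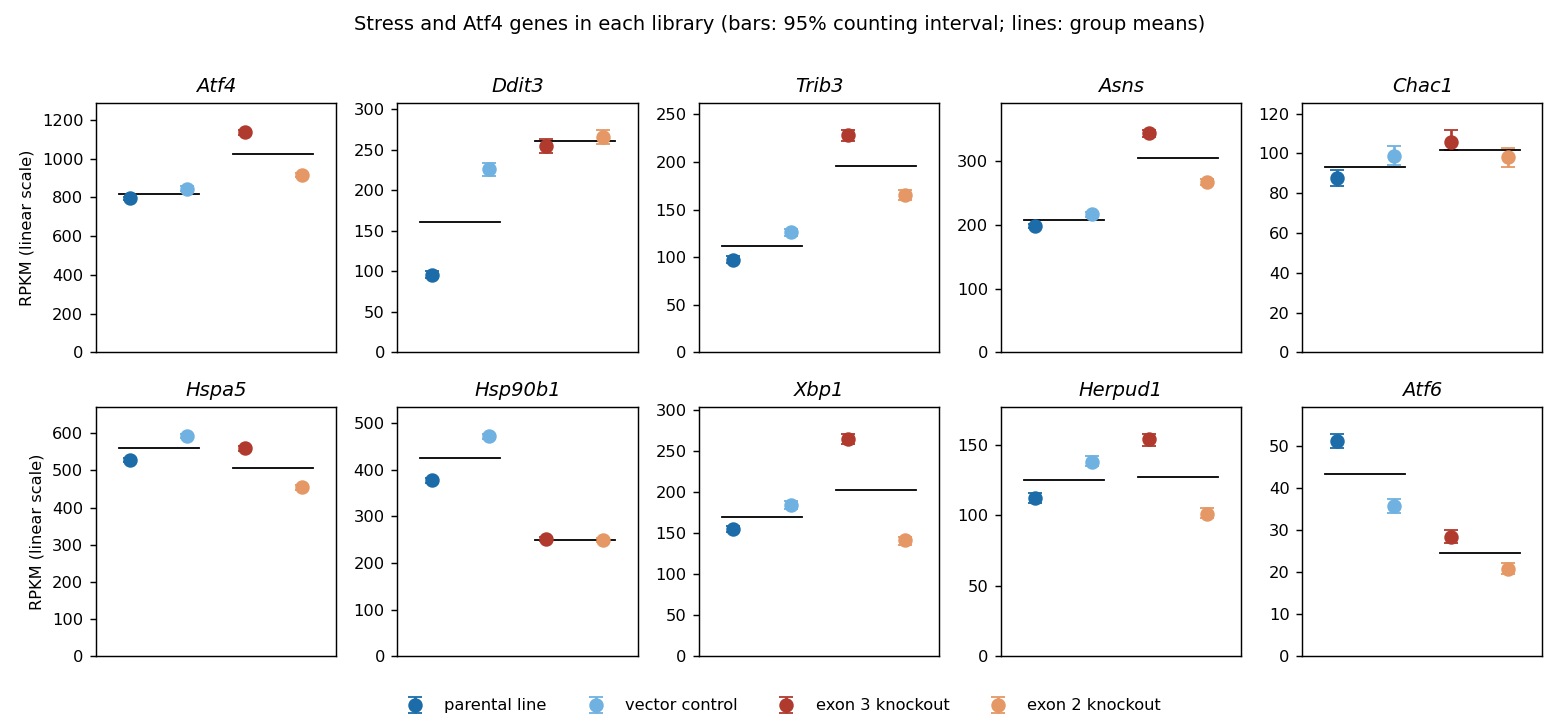
RPKM of the 10 genes in each library (linear axes from 0). Points are single libraries with 95% Wilson counting intervals and black lines are the means of the 2 controls and the 2 knockouts. Atf4, Ddit3, Trib3 and Asns lie higher in both knockouts, Hsp90b1 and Atf6 lower in both, and Xbp1 is high in the exon 3 knockout (264) and low in the exon 2 knockout (141).

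Atf4 encodes the transcription factor that gives its branch its name, and it lies on chromosome 15 from 80255184 to 80257541 (plus strand, GRCm38). The parental and vector libraries had RPKM of 795 and 846, and the exon 3 and exon 2 libraries 1136 and 915. Both knockouts lay above both controls, and the exon 3 knockout stood highest. The means of controls and knockouts were 820 ± 36.5 and 1025 ± 157 (SD, n = 2 each), and the log2 change was 0.31 (SE 0.30, limma adjusted p 0.581). The change after quantile normalization was 0.06, and 75.9% of all tested genes had a lower log2 change than Atf4 in the main comparison. As in all bulk samples, a higher level per cell and a larger share of cells with the transcript cannot be told apart. An exact permutation test, two-sided, cannot go below 0.333 with 2 libraries a group, so it cannot call any one gene.

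Ddit3, also called Chop, encodes a transcription factor that promotes cell death when stress persists. It lies on chromosome 10 from 127290774 to 127296288 (plus strand). RPKM was 95.8 (parental), 226 (vector control), 255 (exon 3 knockout) and 266 (exon 2 knockout). The parental line was low and the other 3 libraries lay close together, so the groups did not overlap but the larger gap was between the controls. The difference in log2(RPKM + 1) was 1.23 from the parental line to the vector control, 1.40 and 1.46 between the exon 3 and exon 2 knockouts and the parental line, and 0.17 and 0.24 between the same knockouts and the vector control. The log2 change of the groups was 0.82 (SE 0.39, limma adjusted p 0.273), with means of 161 ± 91.9 and 261 ± 7.81 (SD, n = 2 each). Without the vector control it was 1.43 with a limma adjusted p of 0.00161, the lone control being assumed to vary like the knockouts, in a fit that called 4.15% of all tested genes. Without the parental line it was 0.21 with an adjusted p of 0.777 in limma. Ddit3 shares 68 bases of exon with Mars and 13 with Gm4189, both on the opposite strand, and whether reads were counted by strand is not stated.

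Trib3 encodes a pseudokinase that is induced by Atf4 and Ddit3 and can inhibit them in turn. Its locus is chromosome 2 from 152337422 to 152344032 (minus strand). Levels were 97.3 and 126 RPKM in the parental and vector lines, against 228 (exon 3) and 165 (exon 2). Both knockouts lay above both controls, with the exon 3 knockout highest, and the differences of the 4 pairs ran from 0.39 to 1.22 on the log2(RPKM + 1) scale. The means were 112 ± 20.3 and 196 ± 43.9 (SD, n = 2 each), and the log2 change was 0.80 (SE 0.31, limma unadjusted p 0.025 and adjusted p 0.207). Trib3 had the largest ratio of means among the members. Its log2 change lay just below that of Ddit3 (0.82) and exceeded that of 96.3% of all tested genes. The CARE letters printed above lie just after its RefSeq start and outside this annotated locus.

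Asns encodes asparagine synthetase, which makes asparagine from aspartate and glutamine and is a much used reporter of Atf4 activity. The gene sits on chromosome 6 from 7675169 to 7693254 (minus strand). It measured 198 (parental) and 217 RPKM (vector control), and 344 and 268 RPKM after editing of exon 3 and exon 2. The controls lay close together and both knockouts lay above them. The means were 208 ± 13.0 and 306 ± 53.7 (SD, n = 2 each), with a log2 change of 0.55 (SE 0.30, limma adjusted p 0.333). After each library was corrected for coding GC content and length, the change of Asns was larger, at 0.96 (limma adjusted p 0.301).

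Chac1 encodes an enzyme that breaks down glutathione and is a late target of the Atf4 branch. It lies on chromosome 2 from 119351229 to 119354381 (plus strand). The parental and vector libraries had RPKM of 87.6 and 98.7, and the exon 3 and exon 2 libraries 106 and 98.2. These groups overlapped, since the exon 2 knockout lay just below the vector control, and the counting intervals of these 2 libraries overlapped as well (93.3 to 103 and 94.1 to 104). The log2 change was 0.14 (SE 0.29, limma adjusted p 0.823), and it was -0.16 after the GC and length correction. Chac1 had the smallest log2 change of the Atf4 branch.

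**Figure D2:**
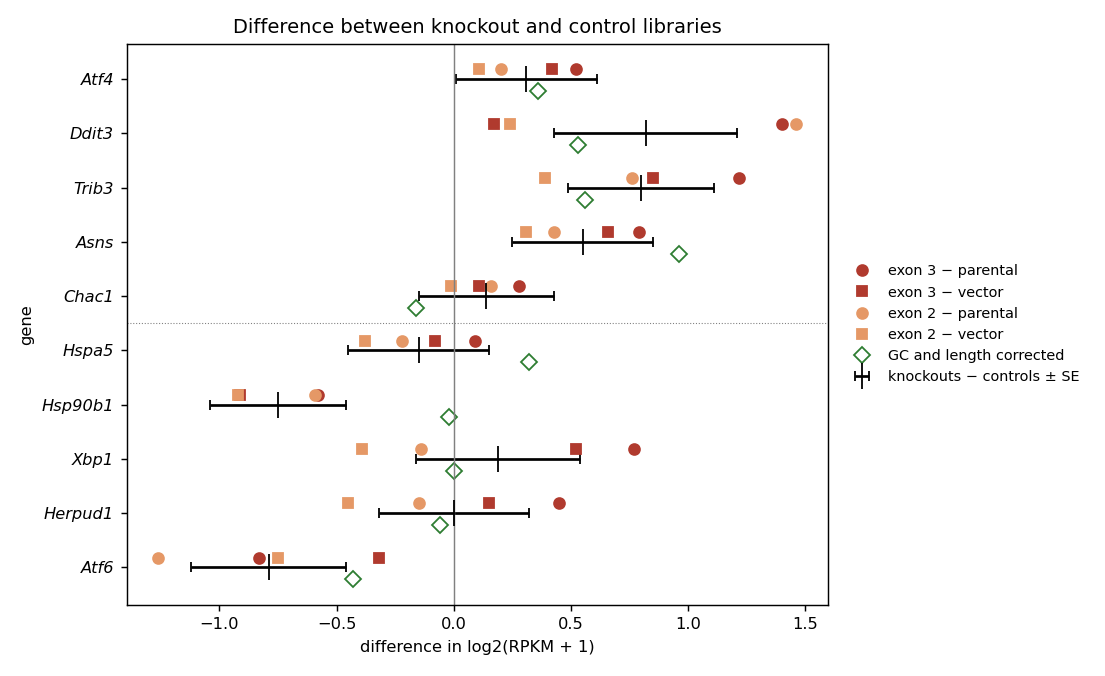
Differences in log2(RPKM + 1) between knockout and control libraries for each member (horizontal axis). Coloured points are the 4 single pairs, black bars the limma log2 change ± SE, and open diamonds the change after correction for GC content and length, and the dotted line separates the Atf4 branch (above) from the endoplasmic reticulum branch (below). The 4 pairs of Atf4, Ddit3, Trib3 and Asns lie above 0 and those of Hsp90b1 and Atf6 below 0, and the diamond of Hsp90b1 lies at -0.02.

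Hspa5 encodes BiP, the main Hsp70 chaperone of the endoplasmic reticulum, which also holds the stress sensors inactive. Its locus is chromosome 2 from 34771970 to 34777547 (plus strand) and has an ERSE close to its start. RPKM was 527 (parental), 592 (vector control), 559 (exon 3 knockout) and 454 (exon 2 knockout). The exon 3 knockout lay between the controls and the exon 2 knockout below them, so the groups overlapped. The log2 change was -0.15 (SE 0.30, limma adjusted p 0.81), and its sign turned after the GC and length correction, to 0.32. The chaperone most often used as a readout of the unfolded protein response was thus within the range of the controls in one knockout and under it in the other.

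Hsp90b1 encodes Grp94, the Hsp90 chaperone of the endoplasmic reticulum, which folds integrins and Toll-like receptors among others. The gene sits on chromosome 10 from 86690209 to 86705509 (minus strand), and its window holds the ERSE letters in both orientations. Levels were 377 and 472 RPKM in the parental and vector lines, against 251 (exon 3) and 250 (exon 2). The knockouts were nearly equal and both lay below both controls. The means were 424 ± 67.2 and 250 ± 0.97 (SD, n = 2 each), with a log2 change of -0.75 (SE 0.29, limma unadjusted p 0.0265 and adjusted p 0.21). Hsp90b1 has the lowest coding GC content of the members (43.2%), and its change was -0.10 after the GC correction and -0.02 after the GC and length correction. Hsp90b1 shares exon bases with 3 other annotated genes, 415 of them with 1810014B01Rik on the opposite strand, 133 with Gm25745 and 84 with Gm15344 on the same strand.

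Atf6 encodes the sensor that is cut in the Golgi under stress to release a transcription factor for chaperone genes. It lies on chromosome 1 from 170704674 to 170867771 (minus strand) and had the lowest RPKM of the members. It measured 51.1 (parental) and 35.6 RPKM (vector control), and 28.3 and 20.8 RPKM after editing of exon 3 and exon 2. Both knockouts lay below both controls, but the controls also differed from each other by 0.51 on the log2(RPKM + 1) scale, with the vector control lower. The means were 43.4 ± 11.0 and 24.6 ± 5.3 (SD, n = 2 each), with a log2 change of -0.79 (SE 0.33, limma unadjusted p 0.0342 and adjusted p 0.23). The change was -0.43 after the GC and length correction.

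Xbp1 encodes the transcription factor whose RNA is spliced by Ire1 under stress. Its locus is chromosome 11 from 5520659 to 5525893 (plus strand), and RPKM adds its spliced and unspliced forms together. The parental and vector libraries had RPKM of 155 and 184, and the exon 3 and exon 2 libraries 264 and 141. The exon 3 knockout lay above both controls and the exon 2 knockout below both, and the counting interval of the exon 2 knockout (136 to 145) did not reach that of the parental line (151 to 159). The log2 change of the groups was 0.19 (SE 0.35, limma adjusted p 0.792) and was -0.26 without the exon 3 knockout.

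Herpud1 encodes a membrane protein of the endoplasmic reticulum that helps to assemble the complex for degradation of misfolded proteins, and it is a target of both branches. The gene sits on chromosome 8 from 94386438 to 94395377 (plus strand). RPKM was 112 (parental), 138 (vector control), 154 (exon 3 knockout) and 101 (exon 2 knockout). The pattern was that of Xbp1, with the exon 3 knockout above and the exon 2 knockout below both controls. The group means were 125 ± 18.3 and 127 ± 36.9 (SD, n = 2 each), with a log2 change of 0.00 (SE 0.32, limma adjusted p 1.0). Among all tested genes, 7.88% had the knockouts on opposite sides of both controls, as did 2 of the 10 members.

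The branches were also described as units in each library. The mean log2(RPKM + 1) of the Atf4 branch minus that of the endoplasmic reticulum branch was -0.09 (parental) and 0.20 (vector control) in the controls, and 0.77 (exon 3) and 0.98 (exon 2) in the knockouts. The difference was thus larger in both knockouts than in both controls, which is given as a description, since the split of the members was made with their values known. The median difference of the Atf4 branch from the parental and vector lines was 0.79 and 0.42 in the exon 3 knockout and 0.43 and 0.24 in the exon 2 knockout. For the endoplasmic reticulum branch the same medians were 0.09 and -0.08 (exon 3) and -0.22 and -0.45 (exon 2). The median log2 change was 0.55 for the Atf4 branch and -0.15 for the endoplasmic reticulum branch, against 0.16 for all members and -0.08 for all tested genes. The median of all members was -0.093 without the exon 3 knockout, 0.384 without the exon 2 knockout and -0.002 after quantile normalization. No member was at least 2-fold higher or lower in all 4 pairs, against 0.267% of tested genes that were 2-fold higher and 1.73% that were 2-fold lower. Quantile normalization brought the median of all tested genes to 0.04, that of the Atf4 branch to 0.33 and that of the endoplasmic reticulum branch to -0.39, and the GC and length correction brought them to 0.05, 0.53 and -0.02. Of the 5 Atf4 branch genes, 5 lay above 0 after quantile normalization and 4 after the GC and length correction. For the 5 endoplasmic reticulum branch genes the counts were 0 and 1. For the 80 tested genes of the related lists described below they were 40 and 52.

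The knockouts differed from each other in the level of most members. In 9 of the 10 the exon 3 knockout was higher than the exon 2 knockout, Ddit3 being the exception at -0.06 on the log2(RPKM + 1) scale, against 45.6% of all tested genes. The difference was 0.91 for Xbp1, 0.60 for Herpud1, 0.46 for Trib3 and 0.43 for Atf6, and 0.01 for Hsp90b1. A limma fit with the exon 3 knockout, the exon 2 knockout and the controls as separate groups, in which the controls alone give the spread, called 0 members and 0.0% of all tested genes. The limma adjusted p was 1.0 for each member, and 0 members and 258 genes (2.37%) had an unadjusted p under 0.05. Between the controls, the vector control was higher than the parental line in all members except Atf6, against 63.4% of all tested genes. Ddit3 was the only member at least 2-fold apart between the controls, as were 8.53% of all tested genes. The counting intervals of neighbouring libraries overlapped only for Ddit3 and Hsp90b1 between the knockouts and for Chac1 among the vector control and both knockouts, so for the other genes the libraries are ordered beyond counting error, which does not include the variation between cultures.

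In level per length the members kept a wide range. Atf4 was the highest in all 4 libraries and ranked between 37 and 53 among all genes, followed by Hspa5 in each library. Hsp90b1 came next in both controls, whereas Asns (344 and 268) lay above Hsp90b1 (251 and 250) in both knockouts. Atf6 was the lowest in all 4 libraries and ranked from 1979 in the parental line to 4459 in the exon 2 knockout. The 10 genes together took 0.561% to 0.679% of the reads in genes, with the lowest share in the exon 2 knockout and the highest in the exon 3 knockout.

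**Figure D3:**
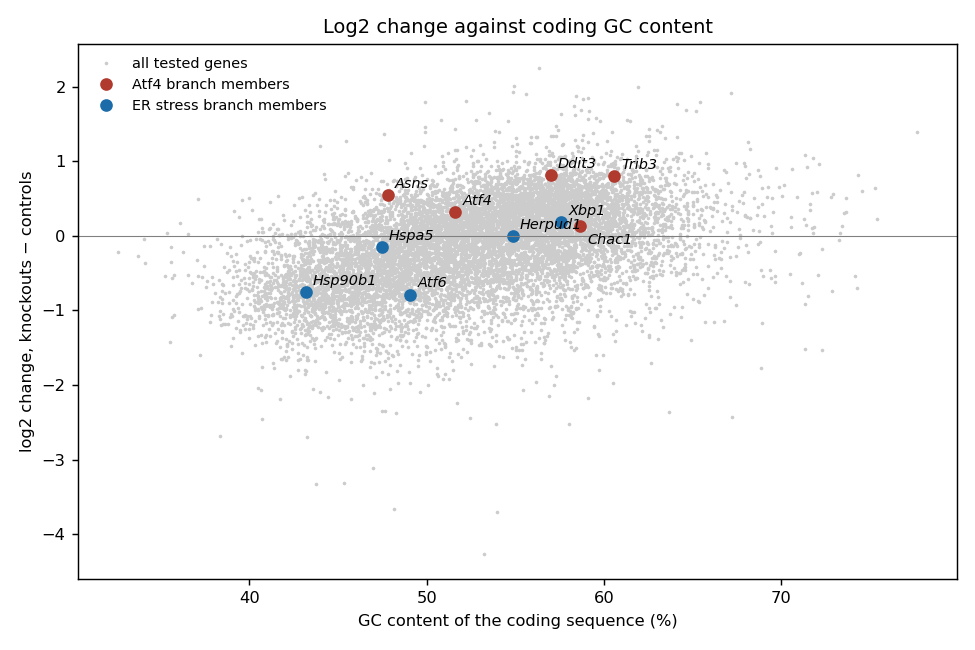
Log2 change between knockouts and controls (vertical axis) against the GC content of the coding sequence in percent (horizontal axis) for all tested genes (grey) and the 10 members (coloured by branch). Genes of low GC content lie lower on average, and Hsp90b1, at 43.2%, lies within the grey points of its GC content.

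Base composition moved with the comparison and touches the members. Across 10774 tested genes with a coding sequence, the log2 change correlated with coding GC content at r 0.458 and with log2 coding length at r -0.275, as a description across genes that share the same 4 libraries. The Atf4 branch members had a median GC content of 57.0% (47.8% in Asns to 60.6% in Trib3), the endoplasmic reticulum branch 49.1% (43.2% in Hsp90b1 to 57.6% in Xbp1), and all tested genes 53.0%. The change after the GC and length correction was 0.53 for Ddit3, 0.56 for Trib3 and 0.36 for Atf4. The part of base composition in the differences of the uncorrected values was not tested beyond these corrections.

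**Figure D4:**
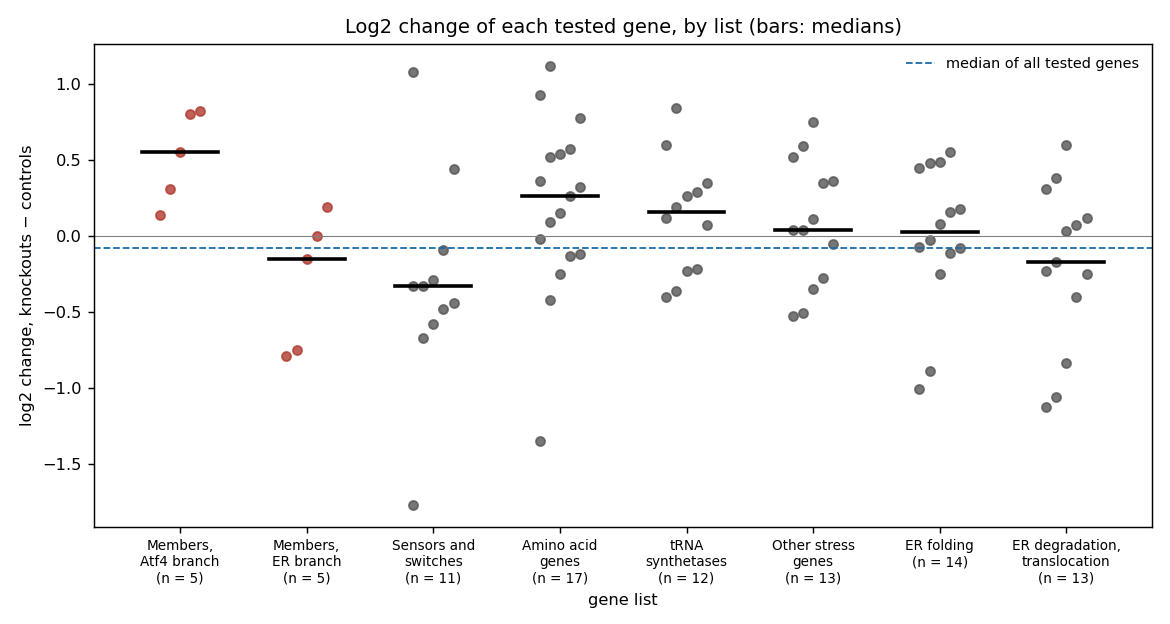
Log2 change between knockouts and controls (vertical axis) of every tested gene in the 2 branches of members (red) and in 6 lists of related genes (grey), with black bars at the medians and the dashed line at the median of all tested genes. The medians run from -0.33 for the sensors and switches to 0.55 for the Atf4 branch members.

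To see whether related genes showed the same pattern, 6 lists of genes of the same pathways were read from the same fit. Of 82 listed genes, 80 were tested and 0 were called in limma. At an unadjusted limma p under 0.05, 6 were higher and 6 lower, against 19.1% of all tested genes in either direction. limma-voom on the reads called 0 of the listed genes too. Across the lists 8 genes had the knockouts on opposite sides of both controls, 7 of them with the exon 3 knockout higher, and 20 genes were higher in both knockouts than in both controls (25.0%) and 19 lower in both (23.8%), with a median log2 change of 0.04. The shares higher and lower in both knockouts are read against the 21.9% and 31.2% of all tested genes.

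Genes of amino acid synthesis and uptake that are known as Atf4 targets are closest to its branch by function. Of the 17 tested, 7 were higher in both knockouts, 3 lower in both, 2 on opposite sides and 5 overlapped, with a median log2 change of 0.26. Slc3a2, the heavy chain shared by several amino acid transporters, measured 296 (parental), 306 (vector control), 619 (exon 3 knockout) and 536 RPKM (exon 2 knockout). Both controls were nearly equal and both knockouts far above them, with a log2 change of 0.93 (SE 0.29, limma adjusted p 0.154), or 0.85 after the GC and length correction. Shmt2, the mitochondrial serine hydroxymethyltransferase, had RPKM of 237, 303, 343 and 442 in the same order (log2 change 0.54). Psat1, an enzyme of serine synthesis, had RPKM of 298, 350, 247 and 298 (log2 change -0.25), so not all abundant genes of the list were higher. The cytosolic tRNA synthetases, which charge tRNAs with amino acids, had 4 of 12 genes higher in both knockouts and 1 lower in both, with a median of 0.15. The abundant ones overlapped between the groups: Sars had RPKM of 430, 578, 683 and 471, Aars 188, 276, 337 and 221, and Nars 280, 422, 269 and 322.

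Other stress genes known as targets of Atf4 or Ddit3 had 2 of 13 tested genes higher in both knockouts, 2 lower in both and a median of 0.04. Eif4ebp1, which restrains cap-dependent translation, had RPKM of 366, 521, 797 and 681 (parental, vector, exon 3, exon 2). Its log2 change was 0.75 (SE 0.31, limma adjusted p 0.229), or 0.34 after the GC and length correction. Both knockouts lay above both controls, as for 4 of the 5 Atf4 branch members. Nupr1, a stress-induced nuclear protein, had RPKM of 159, 418, 355 and 386, with the parental line low and the other 3 libraries high, as in Ddit3. Ddit4, an inhibitor of mTORC1, had RPKM of 457, 498, 497 and 280 and was low in the exon 2 knockout alone.

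The list of stress sensors and switches had 7 of 11 genes lower in both knockouts and 2 higher in both. The median log2 change was -0.33, which was -0.09 after the GC and length correction. The changes ran from -1.77 for Eif2ak2 to 1.08 for Ppp1r15a, which was higher in both knockouts (named after its values were seen). Eif2ak2 encodes the eIF2 alpha kinase activated by double-stranded RNA. Of the 80 tested list genes it alone was at least 2-fold lower in all 4 pairs, against 1.73% of all tested genes. Levels were 29.8 and 49.0 RPKM in the parental and vector lines, against 8.04 (exon 3) and 13.6 (exon 2), with a log2 change of -1.77 (SE 0.37, limma adjusted p 0.0957), or -1.09 after the GC and length correction. Both knockouts lay well below both controls. Eif2s1, which encodes eIF2 alpha itself, had RPKM of 92.3, 116, 54.2 and 77.2 in the same order (log2 change -0.67, and -0.10 after the correction). Mbtps1, the Golgi protease that cuts Atf6, had RPKM of 97.4, 79.4, 76.0 and 67.3 (log2 change -0.29). Atf6b, the homologue of Atf6, had RPKM of 46.8, 44.9, 70.5 and 55.5 (log2 change 0.44), so it was higher in both knockouts where Atf6 was lower in both.

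Genes of the endoplasmic reticulum itself formed the last lists. Of 14 folding genes, 3 were higher in both knockouts, 2 lower in both and 3 on opposite sides. Their log2 changes had a median of 0.02 and ran from -1.01 to 0.55, with 7 of the 14 above 0. Correcting each library for GC content moved this median to 0.25, with 12 of the 14 above 0. With length corrected as well, it was 0.22, with 11 above 0. All tested genes had medians of 0.04 and 0.05 under the same corrections. The median near 0 was thus not kept once GC content was corrected. Quantile normalization instead moved it to -0.08, with 6 of the 14 above 0. P4hb, a protein disulfide isomerase, measured 1082 and 964 RPKM in the controls (parental and vector), 1576 with exon 3 edited and 735 with exon 2 edited. Calr, the lectin chaperone calreticulin, had RPKM of 669, 790, 1059 and 636 in the same order. Both genes thus had the pattern of Xbp1 and Herpud1, high in the exon 3 knockout and low in the exon 2 knockout. Ppib, a prolyl isomerase, had RPKM of 854, 634, 985 and 1093 (log2 change 0.49) and was higher in both knockouts. Of 13 tested degradation and translocation genes, 2 were higher in both knockouts and 4 lower in both, with a median of -0.17. The log2 changes ran from -1.13 for Edem3, lower in both knockouts (named after its values were seen), to 0.60 for Derl1. That of Edem3 was -0.56 after the GC and length correction, and that of Derl1 0.59. Derl1, a channel component for misfolded proteins, had RPKM of 84.7, 87.8, 162 and 106 (log2 change 0.60), and Os9, a lectin that delivers them, 72.0, 67.3, 90.6 and 90.8 (log2 change 0.38). Sec61a1, the pore through which new proteins enter, had RPKM of 144, 161, 171 and 98.6, again with the knockouts on opposite sides of both controls.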

How the data were processed

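The authors deposited 1 table of RPKM values for the 4 libraries, and all columns were matched to a library by the labels (0 unmatched). The labels name a stranded total RNA kit and the study's methods a kit of the same maker without those words. The submitters' processing notes name CASAVA 1.8, GSNAP and GRCm38, and the gene model and counting rule are not given in the sources used here. Whole reads with a whole gene length were recovered from the RPKM values for 99.7% of genes above 0 (tolerance 0.001 reads). The scale was set on annotated coding lengths (GENCODE M21), which the recovered length equalled for 56.0% of tested genes with a coding sequence. They gave depths and 95% Wilson intervals, which cover counting error only. Values were analysed as log2(RPKM + 1), a scale that understates changes of low genes, with limma 3.58.1 (R 4.3.3, intensity trend, two-sided, Benjamini-Hochberg over 10871 genes with a mean of at least 1 RPKM, threshold 0.05). The fit was tested on simulated counts, which held no effect of base composition or of the single line. That test therefore does not show how the fit behaves on these libraries. SE is the moderated standard error, and ratios are of mean RPKM. No label says that the lines of a group are replicate cultures, so p-values measure only the spread between these libraries. The members, their split into branches and the lists were chosen with earlier results of these data known. Named list genes are the 3 with the highest mean RPKM in each list and any called or at least 2-fold apart in all 4 pairs. Genes marked as named after their values were seen fall outside this rule. Alternatives were a pseudocount of 0.1, median ratio scaling, quantile normalization, no filter or a mean of at least 5 RPKM, corrections for GC content and length, other limma priors, limma-voom on recovered reads, a 3-fold limit and leaving out each library. The fit of exon 3 against exon 2 was added after seeing the data. Figures used matplotlib 3.10.9 and motif searches Python 3.11.15.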

Additional observations from a re-analysis of the deposited data

Results flagged for a closer look

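In 2 members and 3 abundant list genes the exon 3 and exon 2 knockouts lay on opposite sides of both controls. The log2(RPKM + 1) value of the exon 3 knockout exceeded that of the exon 2 knockout by 0.91 for Xbp1, 0.60 for Herpud1, 1.10 for P4hb, 0.73 for Calr and 0.79 for Sec61a1. A limma fit added after seeing the data, with 1 library of each knockout and the spread taken from the controls, gave an adjusted p of 1.0 for all 5 genes. Such a pattern was present in 7.88% of all tested genes and in 8 of 80 tested list genes, of which 7 had the exon 3 knockout higher and 1, Ero1lb, the exon 2 knockout higher (named after its values were seen).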

How the results depend on the processing

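Each line has 1 library, each group 2, and no label gives a batch. No paired analysis was possible because the labels give no replicate numbers. The count of members called by limma was 0 in the main comparison and under all alternatives that kept the 4 libraries, and 0 to 1 when 1 library was left out, the 1 being Ddit3 without the vector control (1.433, adjusted p 0.00161 in limma). Members at least 2-fold higher in all pairs numbered 0, and 0 to 1 with 1 library left out. The pathway genes called numbered 0 in the main comparison, 1 with a mean of at least 5 RPKM and 1 with a robust prior (Eif2ak2 both times), and 0 to 6 with 1 library left out (4 without the vector control, 6 without the parental line). The same fits called 0.367%, 2.62%, 4.15% and 7.25% of all tested genes, against 0.0184% in the main comparison. The cause was not tested. Signs turned for 3 members with small changes. Chac1 was -0.017 after the GC correction and -0.160 after the GC and length correction. Hspa5 was 0.276 and 0.318 in the same order and -0.300 to 0.001 with 1 library left out (0.001 without the exon 2 knockout). Xbp1 was -0.004 after the GC and length correction, -0.011 after quantile normalization and -0.265 to 0.641 with 1 library left out (-0.265 without the exon 3 knockout). The median of the sensors and switches was -0.090 after the GC and length correction. That of the tRNA synthetases was 0.260 after the GC correction, 0.373 after the GC and length correction, -0.023 after quantile normalization and -0.022 to 0.338 with 1 library left out. That of the degradation and translocation genes was -0.452 to 0.135 with 1 library left out. The cause of these moves was not tested.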
